A study of Mus musculus with 6 samples.

Results

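The Oas and Ifit genes are 2 families of antiviral genes, and 9 of them, Oas1a, Oas1g, Oas2, Oas3, Oasl1, Oasl2, Ifit1, Ifit2 and Ifit3, are described here in Treg cells of the mouse, the CD4 T cells that express Foxp3 and hold immune responses in check. They were taken by symbol from a deposited table of 23992 gene symbols, keeping the transcript of highest summed count per symbol. All 9 were found, each with 1 transcript. The KO group is 3 libraries of Treg cells from Foxp3YFP-Cre/Y Crlf2fl/fl mice, in which the Foxp3-driven Cre acts on a floxed Crlf2 allele, which encodes the subunit that makes the receptor specific for TSLP, an epithelial cytokine. The WT group is 3 libraries from Foxp3YFP-Cre/Y mice, so both groups carry the Cre and YFP allele, and both are CD45.2 males by the genotype. Cells were sorted as live CD4+YFP+ cells, per the labels from pooled spleen and lymph nodes. Age, any challenge of the animals and how many animals a library stands for were not found in the labels. The series title is about what TSLP does through Treg cells in allergic inflammation and for Treg identity.

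The oligoadenylate synthetases (Oas) bind double-stranded RNA and make short chains of adenylate, a second messenger of the antiviral response that leads to cleavage of RNA and so limits viral and cellular protein synthesis. The Ifit proteins are built of tetratricopeptide repeats, and several of them bind RNA that lacks the marks of host messenger RNA. Both families are classical interferon-stimulated genes: type I interferon signals through Ifnar1 and Ifnar2 and the kinases Jak1 and Tyk2 to the complex ISGF3, which holds Stat2 and Irf9 and binds the interferon-stimulated response element (ISRE) of their promoters.

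All 9 genes had lower values in KO than in WT Treg libraries, and for each of them every KO library lay below every WT library. Oas2, Oas3, Oasl1 and Ifit2 fell in KO by the test across all genes (4 of 9 genes at an adjusted p under 0.05). Of all 12720 tested genes, 0.983% were called lower by the same test and 0.755% higher, 1.74% in all. The share of tested genes with all KO values under all WT values was 11.5%, and that with a lower value in KO at an unadjusted p under 0.05 was 9.13%, which held for 9 of the 9 genes. The median log2 fold change of the 9 genes was -2.48 (range -2.93 to -0.79), against -0.04 over all tested genes. The members were chosen with earlier results of these data known, so these counts are a description and no list test was made.

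The promoters of the members are shown first, because the ISRE is the element through which ISGF3 is known to act on such genes. RefSeq promoter windows (GRCm38.p6, 250 bases before to 50 after the annotated start) were found for 8 of the 9 genes, with 2 windows for Ifit2, and Oas2 was not matched. They were searched for the ISRE core GAAANNGAAA, read on either strand (TTTCNNTTTC on the other). Of the 8 genes, 5 held at least 1 core (62.5%), against 1079 of 27025 genes in the whole promoter table (3.99%) and 7 of 16 matched genes of a list of other interferon-stimulated genes (43.8%). The sequences below are the 170 bases before the start of those 5 genes, 5′ to 3′ along the gene, with the cores in capitals. They lie at chr19:34640719-34640888 on the plus strand (Ifit1), chr19:34583359-34583528 on the plus strand (Ifit3), chr5:120907526-120907695 on the minus strand (Oas1a), chr5:120887614-120887783 on the minus strand (Oas1g) and chr5:120777660-120777829 on the minus strand (Oas3).
Ifit1: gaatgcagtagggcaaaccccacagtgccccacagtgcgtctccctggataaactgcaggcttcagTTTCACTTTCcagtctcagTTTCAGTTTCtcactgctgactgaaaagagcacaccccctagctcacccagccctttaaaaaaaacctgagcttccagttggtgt
Ifit3: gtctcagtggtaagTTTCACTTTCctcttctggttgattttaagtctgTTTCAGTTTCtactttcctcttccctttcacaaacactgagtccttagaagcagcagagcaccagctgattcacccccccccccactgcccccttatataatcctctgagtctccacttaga
Oas1a: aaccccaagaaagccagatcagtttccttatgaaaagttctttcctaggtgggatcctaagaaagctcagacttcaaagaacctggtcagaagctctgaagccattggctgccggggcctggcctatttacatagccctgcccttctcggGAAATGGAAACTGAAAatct
Oas1g: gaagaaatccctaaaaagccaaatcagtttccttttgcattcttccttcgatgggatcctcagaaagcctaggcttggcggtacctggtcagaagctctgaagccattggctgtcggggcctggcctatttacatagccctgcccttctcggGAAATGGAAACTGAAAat
Oas3: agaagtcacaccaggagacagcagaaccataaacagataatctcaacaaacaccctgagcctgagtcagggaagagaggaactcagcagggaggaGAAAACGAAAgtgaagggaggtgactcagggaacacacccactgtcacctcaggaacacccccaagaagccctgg

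Ifit1 and Ifit3 each held 2 separate cores, and both genes held the same pair of core letters, TTTCACTTTC and TTTCAGTTTC, on the strand opposite to the core as spelled. Oas1a and Oas1g each held 2 cores that overlap within 1 stretch, GAAATGGAAACTGAAA, which ends 5 bases before the start of Oas1a and 3 bases before that of Oas1g. These 2 promoters are near copies: over the 170 bases they aligned with 145 identical and 20 different bases (87.9% identity) and 10 gapped ones, so they are not independent examples. Oas3 held 1 core, 75 to 66 bases before its start. The windows of Oasl1, Oasl2 and Ifit2 held no core, which says only that these letters are not in these windows. The gamma-activated site (GAS), spelled TTCNNNGAA on both strands, was found in 2 of the 8 genes, Ifit2 and Oas1a, against 9.55% of the genes in the table, and overlapped no ISRE core.

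**Figure D1:**
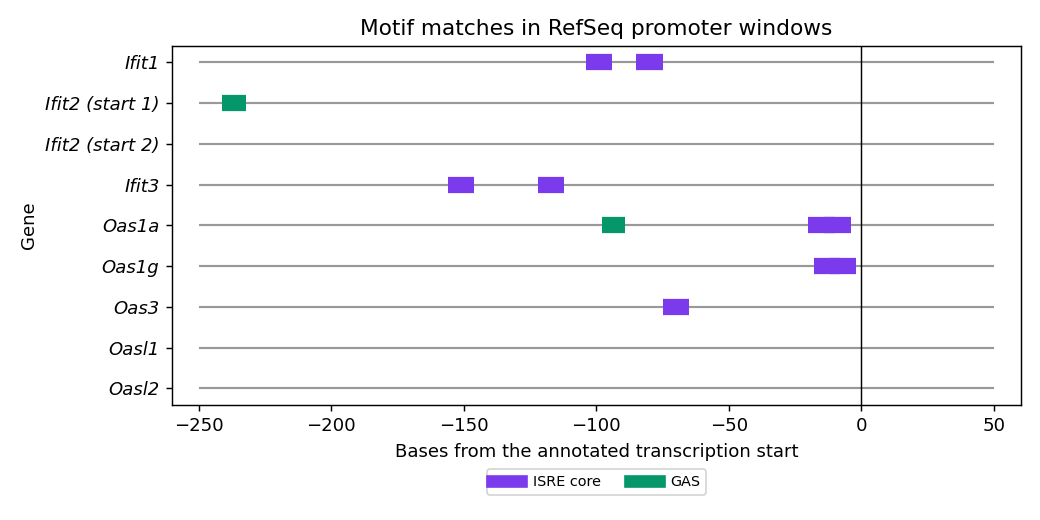
Matches of the ISRE core (purple) and the GAS motif (green) in the 9 RefSeq promoter windows of 8 Oas and Ifit genes; the x axis gives bases from the annotated start, 250 before to 50 after. Ifit1, Ifit3, Oas1a, Oas1g and Oas3 held ISRE cores, and those of Oas1a and Oas1g lie next to the start.

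Some properties of the libraries bear on what follows. Libraries held 9649601, 11583969 and 18352401 counts in KO replicates 1 to 3, and 7971181, 1439736 and 12180569 in WT replicates 1 to 3, with 1 transcript per symbol. Crlf2 (chr5:109554709-109558993, minus strand) had 93, 84 and 68 reads in KO and 694, 213 and 1111 in WT, in the direction of the titles and genotype tags that set the groups, whereas the strain named in the descriptions is that of the other group. Its level was 6.44 ± 2.76 CPM in KO, against 115 ± 27.7 CPM in WT (SD, n = 3 each; CPM are counts scaled to library size), and the difference was called (log2 fold change -4.16, SE 0.36; adjusted p = 0.0047, edgeR). Foxp3 was at 386 to 489 CPM in KO and 200.1 to 474 CPM in WT, and Treg markers took 0.369% to 0.378% of counts in KO and 0.156% to 0.342% in WT. Every KO share of these markers thus lay above every WT share, with WT replicate 3 lowest (0.156%), and none of the markers was called. The labels name spleen and lymph node, the deposited table is named for lung, and transcripts of 13 lung epithelial markers took 0.243% to 1.97% of counts in KO and 1.71% to 7.60% in WT, with Scgb1a1 the most abundant (2167 to 17399 CPM in KO and 15959 to 76749 CPM in WT), followed by Sftpa1. WT replicate 3 stood apart: erythroid markers, led by Hbb-bs and Hbb-b1, took 12.6% of its counts, against 0.168% to 0.249% in KO and 0.150% and 0.599% in the other WT libraries, with near-identical globin genes counted separately. In this bulk RNA, fewer cells of a type and less RNA per cell cannot be told apart.

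Gene positions are those of GENCODE M21 (GRCm38), in which all 9 members are protein coding. The synthetase genes Oas1a, Oas1g, Oas2 and Oas3 lie together on chromosome 5. Oas3, the largest of the double-stranded RNA sensors of the family, lies at chr5:120753098-120777661 (minus strand). It was at 49.4, 83.5 and 41.8 CPM in KO replicates 1 to 3, whereas WT replicates 1 to 3 had 347, 330 and 236 CPM. The highest KO library stood at 0.353 of the lowest WT library. Its level fell to 58.2 ± 22.2 CPM in KO, against 304 ± 59.6 CPM in WT (SD, n = 3 each), with a log2 fold change of -2.39 and an SE of 0.28 (adjusted p = 0.0124 by edgeR). By unadjusted p it ranked 25 of all 12720 tested genes.

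Oas2, an oligoadenylate synthetase next to Oas3 (chr5:120730333-120749853, minus strand), was at 5.36, 16.6 and 6.004 CPM in the KO libraries, against 79.8, 46.5 and 63.6 CPM in the WT libraries. KO replicate 2 was the highest of the KO libraries and WT replicate 2 the lowest of WT, and the groups did not overlap. The mean fell to 9.34 ± 6.34 CPM in KO, against 63.3 ± 16.7 CPM in WT (SD, n = 3 each), with a log2 fold change of -2.78 and an SE of 0.46 (adjusted p = 0.033 by edgeR). An overlapping gene on the other strand, Gm43068, is annotated there, and since the strand setting of the counting is not known its reads cannot be told apart.

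Oas1a and Oas1g, the mouse relatives of human OAS1, showed the smallest differences. Oas1a (chr5:120896256-120907521, minus strand) was at 60.3, 96.3 and 52.6 CPM in the KO libraries, against 112, 153 and 107 CPM in the WT libraries. Oas1g (chr5:120876142-120887613, minus strand) was at 22.9, 42.5 and 24.7 CPM in the KO libraries, against 48.0, 54.7 and 53.6 CPM in the WT libraries. The groups did not overlap for either gene, but the highest KO library reached 0.899 of the lowest WT library for Oas1a and 0.885 for Oas1g. The log2 fold changes were -0.82 (SE 0.25; adjusted p = 0.158, edgeR) and -0.79 (SE 0.26; adjusted p = 0.18, edgeR), and neither gene was called. Their transcripts are hard to tell apart: 57.6% of the 50-base words of the Oas1a transcript also occur in another gene, Oas1g, so the split of reads between them is uncertain. With the counts of both genes summed, an alternative added after the data were seen, the log2 fold change was -0.81 (SE 0.24; adjusted p = 0.142, edgeR).

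The 2 Oas-like genes lie in a second cluster of chromosome 5. Oasl1, whose mouse product is known to inhibit translation of Irf7 mRNA (chr5:114923240-114937915, plus strand), had the lowest mean level per kilobase of the 9 genes in both groups, though in KO replicate 3 Oas2 and Oasl2 lay under it. It had 21, 81 and 75 reads in KO and 208, 37 and 309 reads in WT, which is 2.04, 6.48 and 3.92 CPM in the KO libraries, against 27.8, 25.3 and 29.2 CPM in the WT libraries. The 21 reads of KO replicate 1 and the 37 reads of WT replicate 2, the library of lowest depth, carry the largest relative counting errors. Oasl1 fell to 4.15 ± 2.23 CPM in KO, against 27.5 ± 1.98 CPM in WT (SD, n = 3 each), with a log2 fold change of -2.72 and an SE of 0.42 (adjusted p = 0.0263 by edgeR). The antisense gene Gm13822 overlaps it.

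Oasl2 (chr5:114896936-114912234, plus strand), a synthetase-like gene with a ubiquitin-like tail in its product, was at 4.38, 21.1 and 2.09 CPM in the KO libraries, against 68.2, 57.5 and 69.0 CPM in the WT libraries. The 3 WT libraries were close together, whereas KO replicate 2 was 10.1 times KO replicate 3. The means were 9.17 ± 10.4 CPM for KO, against 64.9 ± 6.42 CPM for WT (SD, n = 3 each). With a log2 fold change of -2.84 it had a large difference but also a large error (SE 0.84; adjusted p = 0.183, edgeR), and it was not called.

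The Ifit genes lie in a cluster on chromosome 19. Ifit2, a tetratricopeptide repeat protein that restricts several neurotropic viruses in mice (chr19:34550694-34576419, plus strand), was at 23.5, 32.1 and 14.7 CPM in the KO libraries, against 120, 118 and 68.0 CPM in the WT libraries. All KO libraries were low, with the highest at 0.472 of the lowest WT library. Its mean fell to 23.4 ± 8.69 CPM in KO, against 102 ± 29.5 CPM in WT (SD, n = 3 each), with a log2 fold change of -2.12 and an SE of 0.33 (adjusted p = 0.0263 by edgeR).

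Ifit1, which binds RNA whose cap lacks methylation (chr19:34640871-34650009, plus strand), was at 20.7, 80.2 and 22.1 CPM in the KO libraries, against 255, 286 and 147 CPM in the WT libraries. Ifit3, whose human counterpart binds IFIT1 and strengthens its hold on RNA (chr19:34583531-34588731, plus strand), was at 14.4, 70.7 and 10.2 CPM in the KO libraries, against 286, 277 and 166 CPM in the WT libraries. For both, 2 of the KO libraries were close together and KO replicate 2 stood well above them, still under every WT library. The log2 fold changes were -2.48 for Ifit1 (SE 0.63; adjusted p = 0.142, edgeR) and -2.93 for Ifit3 (SE 0.84; adjusted p = 0.182, edgeR), and neither was called. Of the 50-base words of the Ifit3 transcript, 51.2% are shared with Ifit3b, and of those of Ifit1 7.06% with Ifit1bl2. Ifit3 summed with its near copy, also added after the data were seen, had a log2 fold change of -2.94 and an SE of 0.86 (adjusted p = 0.19 by edgeR).

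**Figure D2:**
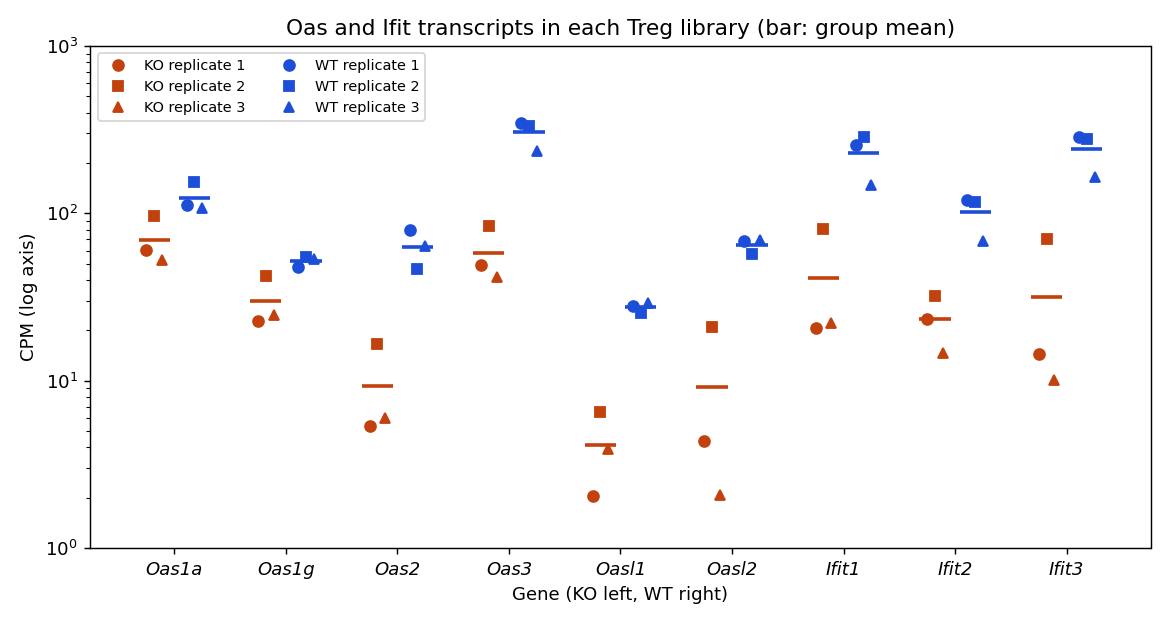
CPM of the 9 Oas and Ifit genes in each library on a log axis, KO (orange) left and WT (blue) right of each gene, with 1 marker shape per replicate number and a bar at the group mean (n = 3 each). KO replicate 2 (square) is the highest KO library for all 9 genes, and no KO library reaches a WT library.

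KO replicate 2 had the highest KO value for 9 of 9 genes, whereas 35.8% of all tested genes were highest in that library. Relative to the mean of KO replicates 1 and 3, its level was 1.68 times for Ifit2, 1.71 times for Oas1a, 1.79 times for Oas1g and 1.83 times for Oas3. The ratio was larger for Oasl1 (2.18), Oas2 (2.93), Ifit1 (3.75), Ifit3 (5.75) and Oasl2 (6.51), and its median over all tested genes was 0.998. The 3 genes with the largest ratios, Oasl2, Ifit3 and Ifit1, were uncalled despite log2 fold changes under -2.4. Within WT the highest library was 1.14 times (Oas1g) to 1.94 times (Ifit1) the lowest. WT replicate 3 was the lowest WT library for 5 genes (Oas1a, Oas3 and the 3 Ifit genes), WT replicate 2 for 3 and WT replicate 1 for 1.

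**Figure D3:**
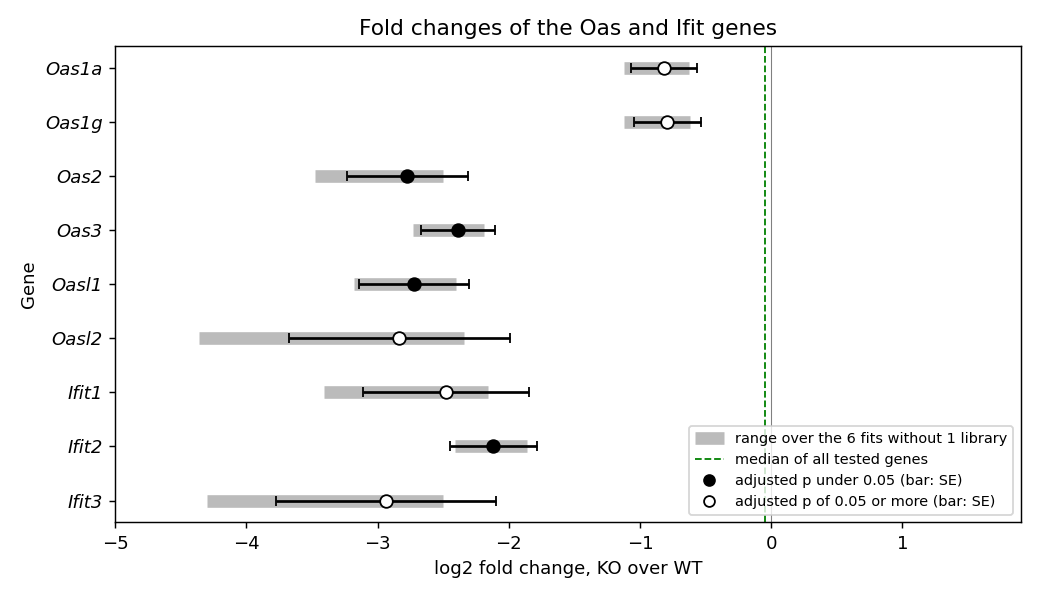
Log2 fold change, KO over WT, of each gene with its SE; filled points have an edgeR adjusted p under 0.05. Grey bars span the 6 fits that left out 1 library and the dashed line marks the median of all tested genes (-0.04). All values lie under 0, Oas1a and Oas1g nearest to it, and the widest grey bars belong to Oasl2 (-4.36 to -2.34) and Ifit3 (-4.30 to -2.50).

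Each of the 4 called genes stayed called in 2 of the 6 fits that left out 1 library, while the direction held in all 6. Such fits also rest on fewer libraries, and the part of that in the lost calls was not tested. Without KO replicate 2, 7 of the 9 genes were called lower, namely Oas2, Oas3, Oasl1, Oasl2 and the 3 Ifit genes, with a median log2 fold change of -3.18. In that fit 124 genes were called in all, and 0.62% of the tested genes were called lower. Without WT replicate 3 the 4 genes called were the same as with all libraries, while 518 genes were called in all and 2.13% of the tested genes were called lower. Leaving out KO replicate 1 or replicate 3, edgeR called 0 of the 9 genes, and 4 and 7 genes were called in all. Leaving out WT replicate 1 or replicate 2, edgeR also called 0 of the 9, and 33 and 22 genes were called in all. Every gene kept a negative log2 fold change in all 6 of these fits.

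Other tools called more of the same genes. DESeq2's Wald test called 8 of 9, all but Oas1g, with 3.24% of 17020 genes called lower. These genes did not go through the low-count filter that left 12720 genes for edgeR. This share is thus not on the same base as the edgeR share. limma-voom called 7, the same as edgeR without KO replicate 2, with 1.38% of its genes called lower. With scaling to pan-T cell genes in place of the trimmed mean of M values, the same 4 genes were called, and all-gene calls were 25 higher and 145 lower in place of 96 higher and 125 lower. That scaling moved the median of all genes to -0.34, and the members' median minus that median was -2.30, against -2.43 with the main scaling.

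Levels of different genes were compared per length, as CPM per kilobase of transcript. In KO the order of the means was Oas1a (36.9), Ifit3 (15.9), Ifit1 (15.6), Oas1g (15.1), Oas3 (12.3), Ifit2 (5.93), Oasl2 (2.93), Oas2 (2.42) and Oasl1 (1.95 CPM per kilobase). In WT it was Ifit3 (122), Ifit1 (87.0), Oas1a (65.7), Oas3 (64.5), Oas1g (26.2), Ifit2 (25.8), Oasl2 (20.7), Oas2 (16.4) and Oasl1 (12.9 CPM per kilobase). Neighbours in these orders overlapped in their ranges over 3 libraries, except Oas3 above Ifit2 in KO and Oas3 above Oas1g in WT. Oas1a was the most abundant of the 9 genes per kilobase in each of the 3 KO libraries, and Ifit3 in each of the 3 WT libraries. Oas1a shares 57.6% of its 50-base words with Oas1g, and Ifit3 51.2% with Ifit3b. Their levels, and the shares of summed levels below, may therefore hold reads of these copies.

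The makeup of the 9 transcripts differed between groups. The 3 Ifit genes made up 26.7%, 41.5% and 24.4% of the summed level per kilobase of the 9 genes in KO replicates 1 to 3, and 56.0%, 55.6% and 45.6% in WT replicates 1 to 3. Oas1a and Oas1g together made up 55.2%, 40.6% and 57.2% in KO and 17.3%, 21.8% and 24.5% in WT. Neither share overlapped between groups, and KO replicate 2 was the KO library nearest to WT in both. These shares are computed from the levels given above. They restate the smaller differences of Oas1a and Oas1g and are not a separate result. As shares of all counts, the 9 genes held 0.0216%, 0.0485% and 0.0186% in KO and 0.126%, 0.137% and 0.0816% in WT.

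Of the further genes of both families 5 were tested, and edgeR called 0 of them although 3 had an unadjusted p under 0.05. I830012O16Rik, named Ifit3b in RefSeq, was at 5.94, 41.3 and 6.16 CPM in the KO libraries, against 153, 159 and 97.3 CPM in the WT libraries (log2 fold change -2.93 with SE 0.88; adjusted p = 0.2, edgeR). Gm14446 (Ifit1bl1) had a log2 fold change of -2.65 (SE 0.59) and 2010002M12Rik (Ifit1bl2) of -2.57 (SE 0.60). These 3 Ifit relatives showed the step of KO replicate 2 as well, and they share sequence with the members. Oas1b, which RefSeq annotates as a transcribed pseudogene, had -0.86 (SE 0.44) and Oas1c -0.59 (SE 0.43), and their groups overlapped. Oas1d, Oas1e, Oas1f and Oas1h had at most 16 reads in any library and were not tested.

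Among the genes that act on or through the Oas products no change was called. Of 6 tested genes of this list, edgeR called 0 and 1 had an unadjusted p under 0.05. That gene was Abce1, known for its role in ribosome recycling, with a log2 fold change of -0.59 and an SE of 0.21 (adjusted p = 0.229 by edgeR). Enpp1, a phosphodiesterase, was next by p at -0.73 (SE 0.39; adjusted p = 0.415, edgeR).

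Among the genes of the interferon receptor and ISGF3, Stat2 fell. Stat2 was at 81.4, 94.8 and 77.6 CPM in the KO libraries, against 235, 211 and 172 CPM in the WT libraries (log2 fold change -1.28 with SE 0.16; adjusted p = 0.0131, edgeR). Irf9, named after its values were seen, had -0.76 (SE 0.17; adjusted p = 0.0701, edgeR). The receptor genes Ifnar1 and Ifnar2, named likewise, had log2 fold changes of 0.37 (SE 0.12; adjusted p = 0.174, edgeR) and 0.45 (SE 0.16; adjusted p = 0.23, edgeR). Neither was called. The 2 most abundant Treg markers, Tnfrsf18 and Cd3e, had log2 fold changes of 0.14 and 0.50 and were not called either. Scaling to pan-T cell genes moved the median of all tested genes from -0.04 to -0.34. The values of the receptor genes under that scaling are not given here.

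Among 10 interferon regulatory factors and inhibitors of the pathway, 2 were called, both lower. Irf7, the factor that amplifies interferon induction, was at 84.5, 180 and 83.1 CPM in the KO libraries, against 556, 441 and 353 CPM in the WT libraries (log2 fold change -1.96 with SE 0.34; adjusted p = 0.0451, edgeR). Socs1, a feedback inhibitor of Jak kinases, had a log2 fold change of -1.12 and an SE of 0.18 (adjusted p = 0.0269 by edgeR). Of 9 tested RNA sensors and related genes 4 were called lower and none higher: Ifih1 (-2.08, SE 0.31), Zbp1 (-2.11, SE 0.32), Ddx58, which encodes RIG-I (-1.43, SE 0.25), and Dhx58 (-2.14, SE 0.39). Of 24 other interferon-stimulated genes 12 were called lower and none higher, with a median log2 fold change of -1.83. Those of smallest p were Rsad2 (-2.68, SE 0.28), Bst2 (-2.18, SE 0.25), Isg20 (-2.06, SE 0.24) and Isg15 (-2.56, SE 0.31). When KO replicate 1, KO replicate 3 or else WT replicate 2 was left out, edgeR called 0 genes of all these companion lists, without WT replicate 1 it called 3, without KO replicate 2 it called 24 and without WT replicate 3 it called 32, against 20 with all libraries.

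The interferon genes themselves were hardly read. Of 19 genes of type I, II and III interferons in the table, 16 had 0 reads in every library, Ifnb1 among them, which allows up to 0.157 to 0.401 CPM in 5 libraries and 2.05 CPM in WT replicate 2 (3 counts, counting error only). Ifnz, named after its values were seen, had 8, 13 and 10 reads in the KO libraries and 0, 2 and 1 in the WT libraries. That is 0.779, 1.04 and 0.522 CPM in KO, against 0, 1.37 and 0.0946 CPM in WT. The groups overlapped only through the 2 reads of WT replicate 2, the library of lowest depth, and Ifnz was not tested. Ifng, the type II interferon, was the only one tested, at 5.16, 8.24 and 3.71 CPM in the KO libraries, against 2.81, 8.21 and 13.5 CPM in the WT libraries, with a log2 fold change of -0.53 and an SE of 0.61 (adjusted p = 0.732 by edgeR). Its groups overlapped, and no difference in Ifng was detectable at this depth and spread.

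**Figure D4:**
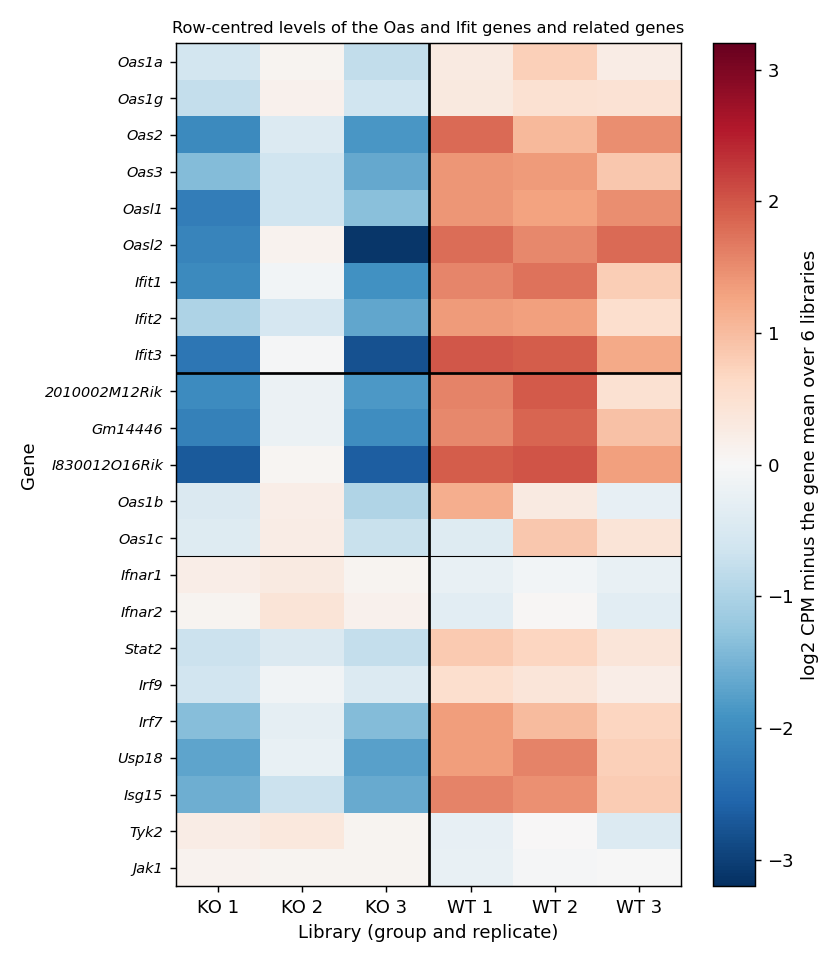
Log2 CPM of each gene minus its mean over the 6 libraries, for the 9 Oas and Ifit genes (top block), further genes of these families (middle) and genes of the interferon pathway chosen for display after their values were seen (bottom). Members are lowest in KO replicates 1 and 3 and intermediate in KO replicate 2. Ifnar1, Ifnar2, Jak1 and Tyk2 vary less and were not called.

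Of 10336 other tested genes with a mean of at least 5 CPM, the 5 whose centred log2 CPM over the 6 libraries lay closest to the members' mean profile were Usp18, Tgtp1, Irf7, Tgtp2 and Isg15. Their root mean square distance to it was 0.157, 0.201, 0.240, 0.243 and 0.250 on the log2 scale, against 0.206 (Oas3) to 0.817 (Oas1g) for the members themselves. Usp18, which removes the modifier Isg15 from proteins and restrains the interferon receptor, was at 30.8, 84.5 and 29.5 CPM in the KO libraries, against 251, 297 and 169 CPM in the WT libraries. KO replicate 2 was thus its highest KO library, as for the members, and KO replicates 1 and 3 were close together. Tgtp1 and Tgtp2 are near-identical T cell GTPase genes on chromosome 11 whose counts may hold the same reads. With 6 libraries in 2 groups, such likeness includes the difference between the groups and is given as a description.

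Transcripts of other cell types also differed between libraries, and no test was made of their part in the members' difference beyond the covariate fit given here. Lung epithelial markers, of which 13 of 13 had reads, took 1.59%, 1.97% and 0.243% of counts in KO replicates 1 to 3 and 7.60%, 1.71% and 2.21% in WT replicates 1 to 3, with KO replicate 2 above WT replicate 2 and the other KO libraries under every WT library. With the share of lung epithelial transcripts entered as a covariate, the members' median log2 fold change was -2.06, against -0.04 over all tested genes. All 9 were negative, but edgeR called 0 of them and 0 genes in all. Alveolar macrophage markers (8 of 8 with reads, led by Chil3 and Ear2) took 0.160% to 0.180% in KO and 0.0132% to 0.351% in WT, and monocyte and macrophage markers (7 of 7 in the table, led by Lyz2 and Cd14) 0.108% to 0.113% in KO and 0.0291% to 0.389% in WT. Both shares were lower in WT replicates 1 and 2, and higher in WT replicate 3, than in any KO library. Plasmacytoid dendritic cells are a known source of type I interferon, and their markers (6 of 6 with reads, led by Pacsin1 and Ly6d) took 0.00498% to 0.00600% in KO and 0.00506% to 0.0204% in WT. Pacsin1 held most of that sum in each library except WT replicate 3, where Ly6d had 1264 reads, Tcf4 587 and Pacsin1 397. Pacsin1 overlapped between groups (log2 fold change -0.13, SE 0.28), whereas all KO libraries lay under all WT libraries for Ly6d and Tcf4. Ly6d was at 4.48, 4.08 and 3.45 CPM in the KO libraries, against 11.0, 10.9 and 119.6 CPM in the WT libraries (log2 fold change -3.61 with SE 1.07; adjusted p = 0.186, edgeR). Tcf4 was at 4.28, 5.76 and 4.33 CPM in the KO libraries, against 6.95, 7.53 and 55.5 CPM in the WT libraries (log2 fold change -2.33 with SE 0.80; adjusted p = 0.218, edgeR), and Siglech, with overlapping groups, had -1.87 (SE 0.74; adjusted p = 0.267, edgeR). None of these markers was called, Tcf4 and Siglech are named after their values were seen, and the part of such cells in the members' difference was not tested.

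No gene of the 11 marker lists was called (0). The remaining lists held under 0.05% of counts in every library. Neutrophil markers (5 of 5 with reads, led by Retnlg and Cxcr2) took 0.00462% to 0.00506% of counts in KO and 0.00475% to 0.0366% in WT. B cell markers (5 of 5, led by Cd79a and Cd79b) took 0.00142% to 0.00275% in KO and 0.00172% to 0.0289% in WT, and CD8 T and NK cell markers (5 of 5, led by Cd8b1 and Ncr1) 0.000943% to 0.00260% in KO and 0.00146% to 0.0111% in WT. Conventional dendritic cell markers (5 of 5, led by Cd209a and Flt3) took 0.00154% to 0.00235% in KO and 0.00349% to 0.0125% in WT, and endothelial markers (4 of 4, led by Pecam1 and Kdr) 0.00703% to 0.00835% in KO and 0.00912% to 0.0125% in WT. For the last 2 lists every KO share lay under every WT share. WT replicate 3 had the highest share of each of these lists except the endothelial one. It was the lowest WT library for 5 of the 9 members and the highest for Oasl1 and Oasl2.

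**Figure D5:**
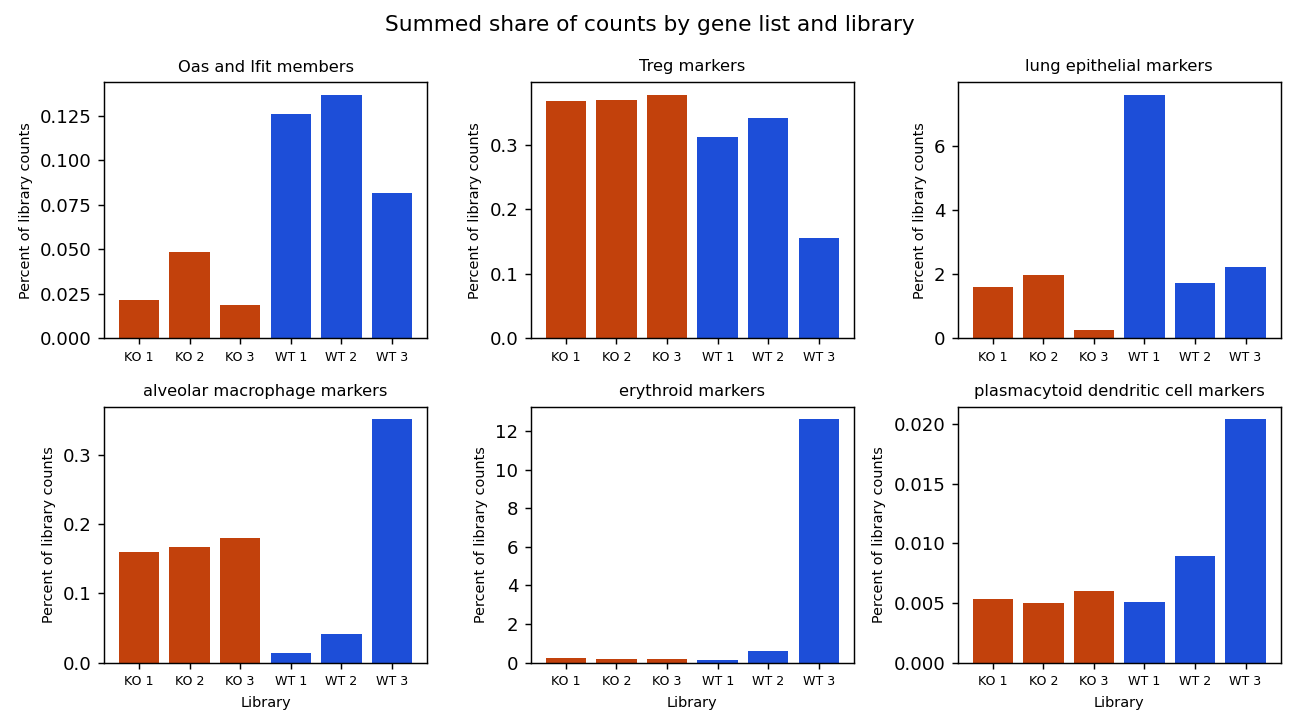
Percent of each library's counts held by the 9 Oas and Ifit genes and by 5 marker lists, KO libraries (orange) left and WT libraries (blue) right, each panel with its own axis from 0. The members' shares are 0.0186% to 0.0485% in KO and 0.0816% to 0.137% in WT, and WT replicate 3 stands out in the erythroid, alveolar macrophage and plasmacytoid dendritic cell panels.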

How the data were processed

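RNA of sorted live CD4+YFP+ cells was sequenced on an Illumina NovaSeq, per the labels' protocols. The values the authors deposited are raw counts of reads for each RefSeq transcript. The submitters' processing notes list TopHat2 2.2.1, Bowtie2 2.2.6, bcl2fastq and build mm10, per the labels; the counting program, annotation release, strand setting and treatment of reads with several matches were not given in the sources used here. Of 31682 transcripts, several belong to 1 symbol for 4343 symbols, and the one of highest summed count was kept. No per-sample column was unused (0) and no row lacked a gene name (0).

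Genes passing filterByExpr (minimum count 10, minimum total 15; 12720 genes, all 9 members among them) were scaled by the trimmed mean of M values (TMM), and KO was compared with WT by the quasi-likelihood F-test of edgeR 4.0.16 (robust) in R 4.3.3, two-sided, with Benjamini-Hochberg adjustment over all tested genes and a threshold of 0.05. CPM use TMM library sizes; SE is the absolute log2 fold change over the square root of F; log2 CPM profiles used a prior count of 2. The fit was tested on simulated data. No 2 libraries agreed within sampling noise (lowest chi-square per degree of freedom 13.1). Whether replicates are separate animals is not stated; p-values then measure the spread between these samples only, which may be technical. Alternatives used DESeq2 1.42.0, limma 3.58.1 (voom), other scalings and filters, a replicate block, a covariate and 5 libraries at a time.

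Members, lists, tests and alternatives were chosen with earlier results of these data known. Genes named are the members, Crlf2, up to 4 called genes of smallest p per companion list (2 where none was called), tested family members, the 2 most abundant markers per list and the 5 nearest profiles; others are marked, and some genes that the rule names are not reported here. Coordinates are from GENCODE M21 (GRCm38, the assembly of mm10) and promoters from RefSeq (GRCm38.p6), searched in Python 3.11.15 and aligned with Biopython 1.88. Shared 50-base words were sought in GENCODE transcripts on both strands.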

Additional observations from a re-analysis of the deposited data

How the results depend on the processing

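All 9 members kept a negative log2 fold change in each of the 16 alternatives. The count of members called lower (4) was the same in both other edgeR scalings by whole-library factors, with pan-T scaling, without the low-count filter, without robust estimation and with the longest transcript per symbol. It was 8 by DESeq2's Wald test (934 genes called in all and 38 of the companion lists), 7 by limma-voom, and 0 with the share of lung epithelial transcripts as covariate (0 genes called, 0 of the companion lists). Leaving out 1 library at a time gave 0 to 7 members called, 4 to 518 genes called, 0 to 32 companion genes called and a median of the members of -3.18 to -2.19. With a replicate block edgeR called 123 genes and 4 members, Ifit1 (adjusted p = 0.044) in place of Oas2 (adjusted p = 0.0941). Deviations of same-numbered libraries from their group means correlated at 0.084, -0.147 and -0.044 across genes, and not every library correlated best with its own number. With 3 libraries per group, these correlations cannot settle whether same-numbered libraries belong together. The adjusted p of Oas3 was at most 0.099 over the alternatives, that of Oas1g at least 0.0677. In these alternatives, the cause of the changed calls was not tested. Depth limits WT replicate 2 most, where Oasl1 had 37 reads.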
